A study of Mus musculus with 22 samples.

Results

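Axon guidance genes of the ephrin, Slit, netrin and repulsive guidance molecule (RGM) systems were followed in the mouse spinal cord after a crush injury. RNA pulled down with tagged ribosomes, meant to be those of astrocytes, was studied beside the RNA left behind. Members were taken by a rule on gene symbols, set with earlier results of these data known, as 43 of the 24060 genes in the deposited count tables. They were 9 EphA and 5 EphB receptors, 5 ephrin-A and 3 ephrin-B ligands, 3 Slits, 4 Robo receptors, 4 secreted netrins, 2 netrin-G proteins, 4 UNC5 receptors, 2 RGM ligands, and the receptors Dcc and Neo1.

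The 22 libraries came from 11 young adult female mice, each of which gave 1 library of either fraction, HA IP or flow-through. The STAT3-CKO SCI group held 3 mGFAP-Cre-RiboTag-STAT3-LoxP mice, the WT SCI group 4 mGFAP-Cre-RiboTag mice and the uninjured group another 4 mGFAP-Cre-RiboTag mice. All 11 thus carried Cre under the mouse Gfap promoter together with RiboTag, an allele whose ribosomal protein gains a hemagglutinin (HA) tag in cells where Cre has acted. Cre also removes Stat3 in the STAT3-LoxP mice, so both the tag and the deletion reach whatever cells have had Gfap promoter activity. The injury was a severe crush at thoracic level 10, and the central 3 mm of the lesion was taken 14 days later. HA IP is RNA pulled down with the tagged ribosomes, and flow-through is the unbound RNA of the same homogenate, meant to come from the other cells. No uninjured STAT3-CKO mice were analysed here.

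Guidance molecules steer growing axons by attraction or repulsion, and many stay expressed in the adult cord. Eph receptors are tyrosine kinases that bind ephrins on neighbouring cells, and signals run both ways: EphA receptors mainly bind ephrin-A ligands, which are anchored by a lipid tail, and EphB receptors mainly bind ephrin-B ligands, which span the membrane, while EphA4 binds both. Slits are secreted repellents for Robo receptors, netrin-1 attracts axons through DCC and repels them through UNC5 receptors, and RGMa inhibits axon growth through neogenin, the product of Neo1. Ephrin-B3 is known for keeping corticospinal axons from recrossing the midline of the cord and is also made by myelinating cells.

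Promoter sequence was matched by symbol in RefSeq (build GRCm38.p6) for 37 of the 43 members, with 44 start sites. Shown are the 250 bases before the start site of the Eph receptors whose HA IP level changed with injury, Ephb1, Epha4 and Epha3, and of the ligand Slit2, which fell in flow-through. Capitals mark letters that match a motif on either strand. The GC box was searched as GGGCGG. The TATA box was searched as TATAAA. The palindrome bound by STAT factors was searched as TTCNNNGAA. No letters in these windows belong to matches of more than 1 kind of motif. The windows are that of Ephb1 at chr9:102354694-102354943 on the minus strand, of Epha4 at chr1:77515089-77515338 on the minus strand, of Epha3 at chr16:63864176-63864425 on the minus strand and of Slit2 at chr5:47982905-47983154 on the plus strand.
Ephb1: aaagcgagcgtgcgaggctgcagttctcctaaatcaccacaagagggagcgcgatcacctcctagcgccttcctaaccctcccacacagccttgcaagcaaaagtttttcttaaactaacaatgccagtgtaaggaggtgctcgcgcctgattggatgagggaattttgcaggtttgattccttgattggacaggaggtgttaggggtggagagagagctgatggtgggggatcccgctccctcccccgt
Epha4: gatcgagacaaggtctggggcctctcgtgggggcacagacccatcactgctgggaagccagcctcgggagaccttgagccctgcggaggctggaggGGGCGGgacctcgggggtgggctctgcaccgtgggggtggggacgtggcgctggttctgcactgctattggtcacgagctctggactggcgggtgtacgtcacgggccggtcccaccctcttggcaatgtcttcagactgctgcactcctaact
Epha3: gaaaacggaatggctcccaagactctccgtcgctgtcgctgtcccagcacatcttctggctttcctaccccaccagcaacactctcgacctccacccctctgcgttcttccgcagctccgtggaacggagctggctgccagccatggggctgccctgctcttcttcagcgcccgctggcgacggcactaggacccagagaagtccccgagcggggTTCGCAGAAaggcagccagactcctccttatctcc
Slit2: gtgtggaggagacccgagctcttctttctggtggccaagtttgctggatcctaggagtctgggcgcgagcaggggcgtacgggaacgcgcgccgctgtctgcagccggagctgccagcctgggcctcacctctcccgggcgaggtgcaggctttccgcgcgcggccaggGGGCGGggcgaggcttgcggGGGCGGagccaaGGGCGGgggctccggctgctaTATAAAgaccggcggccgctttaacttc
The Ephb1 window held none of these motifs, that of Epha4 held 1 GC box, and that of Epha3 held 1 match to the STAT palindrome. The Slit2 window held 3 GC boxes and 1 TATA box. The GC box was in 68.2% of the members' 44 windows and in 32.7% of the 32851 windows of all genes. Median GC content was 64.6% over the members' windows and 52.4% over all windows. The STAT palindrome was in 2 of the members' windows (Efna3 and Epha3), which is 4.55%, and in 7.02% of all windows. TGANTCA, the letters bound by AP-1, was in 0 of the members' windows and in 6.75% of all windows, and the TATA box was in 9.09% and 12.4%. These are matches of letters only, with no binding measured.

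Depth differed between groups in the RNA that was not ribosomal. HA IP totals were 31292491 to 37970557 counts in STAT3-CKO SCI, 31574207 to 46055612 in WT SCI and 37267334 to 59337089 in uninjured libraries, and flow-through totals were 4396861 to 8399656, 3898755 to 7189443 and 4904425 to 11242654. The ribosomal RNA precursor Rn45s took 52.2% to 89.2% of HA IP counts in STAT3-CKO SCI, 89% to 96.2% in WT SCI and 12.6% to 26.7% in uninjured libraries, with like shares in flow-through. The lowest share in an injured cord exceeded the highest in an uninjured one, and effects of injury and of this share on the values cannot be told apart. The 43 members together had 3028 to 26014 counts per HA IP library in STAT3-CKO SCI, 488 to 2582 in WT SCI and 25502 to 62070 in uninjured mice. In flow-through they had 398 to 3880, 82 to 601 and 4189 to 16781, so levels in WT SCI flow-through rest on few counts.

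The targeted gene and the astrocyte marker went with the labels in HA IP. Stat3 was at 7.85, 10.1 and 12.3 CPM (counts per 1000000 of the scaled library size) in STAT3-CKO SCI, against 66.2, 56.2, 26.3 and 35.0 CPM in WT SCI and 12.2, 14.2, 15.5 and 13.3 CPM in uninjured libraries. Every STAT3-CKO library was below every WT SCI library, with a log2 fold change of -2.17 (edgeR adjusted p = 0.00331). Gfap was higher in HA IP than in flow-through of uninjured cord by 5.12 on the log2 scale.

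Levels were also taken per kilobase of exon, with all annotated exons of a gene merged. That length can exceed the length of the transcript present, so the order of genes depends on it. By this measure 3 members led in HA IP of uninjured cord: Efnb3 at 5.04 ± 0.68, Rgma at 4.36 ± 0.19 and Neo1 at 3.46 ± 0.18 CPM per kb (SD, n = 4). By mean CPM alone, Neo1 (30.2) was above Rgma (24.2) and Efnb3 (16.0). Merged length was 16511 bases for Robo1 and 16983 for Robo2, against 3183 for Efnb3. The ranges of Efnb3 (4.24 to 5.66) and Rgma (4.09 to 4.50) overlapped, and every Neo1 value (3.24 to 3.66) was below every Rgma value. Next came Unc5b, a netrin receptor for repulsion, at 1.71 ± 0.15, and then Epha4 at 1.08 ± 0.22 and Ntn1, which encodes netrin-1, at 1.00 ± 0.25 CPM per kb, whose ranges overlapped. Efnb3 was also first of the 43 in every other group of either fraction, at 9.31 ± 0.81 CPM per kb in HA IP of STAT3-CKO SCI (n = 3) and 9.98 ± 2.91 in HA IP of WT SCI (n = 4). In uninjured flow-through the order after Efnb3 (10.2 ± 0.86) was Unc5a (3.64 ± 0.79) and Neo1 (3.38 ± 0.51), whose ranges overlapped.

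Many of these genes differed in level between HA IP and flow-through of uninjured cord. Of 38 members tested, 24 differed between the fractions, 6 higher and 18 lower in HA IP, where 50.7% of all 14312 genes tested differed, 26.4% higher and 24.2% lower. The median log2 fold change was -0.94 over the members tested and 0.02 over all genes. The astrocyte markers listed for this work were higher in HA IP in 10 of 10 and the neuronal markers lower in 14 of 15. Ependymal markers were also higher in HA IP in 6 of 6 tested. Of 9 oligodendrocyte precursor markers, 5 were higher and 3 lower. The part of these cell types in the members' values was not tested. A gene lower in HA IP is not thereby shown to be absent from astrocytes.

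Rgma was among the 6 higher in HA IP, at 22.7, 24.1, 24.9 and 25.0 CPM in HA IP and 7.24, 8.36, 7.23 and 6.72 CPM in flow-through. CPM of the fractions are on separate scales, and the fit over both gave a log2 fold change of 1.98 ± 0.13 (SE; edgeR adjusted p = 7.09e-07). Ntn1 stood at 8.53, 5.00, 6.02 and 5.67 CPM in HA IP and at 0.255, 0.65, 1.06 and 0.521 CPM in flow-through, a log2 fold change of 3.75 ± 0.37 (adjusted p = 1.32e-05). The receptor Ephb4, best known from veins, gave 4.35 ± 0.50 (adjusted p = 3.58e-05) on 9 flow-through counts in all, and Ephb3 gave 2.20 ± 0.57 (adjusted p = 0.00779), or 2.81 without animal 154. Epha4 was higher in HA IP by 1.10 ± 0.18 (adjusted p = 0.000412). The ephrin-A ligand Efna4 was higher by 3.05 ± 0.91 (adjusted p = 0.0164), a call that ended when animal 65 (2.86, adjusted p = 0.067) or 154 (3.11, adjusted p = 0.0776) was left out. The Efna4 value rests on 3 flow-through counts in all and was 2.30 without animal 42 and 4.30 without animal 79.

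Slits and most netrin receptors were lower in HA IP. All 3 Slits were among the 18: Slit1 with a log2 fold change of -2.09 ± 0.25 (edgeR adjusted p = 4.63e-05), Slit2 with -1.76 ± 0.24 and Slit3 with -1.83 ± 0.28. Their receptors Robo1 (0.08 ± 0.13, adjusted p = 0.622) and Robo2 (0.48 ± 0.23, adjusted p = 0.101) did not pass. Robo2 was called as higher in HA IP with the animal as a block (0.52, adjusted p = 0.00374) and without animal 42 (0.57, 0.0101). Of the UNC5 receptors, Unc5a (-2.03 ± 0.25), Unc5c (-0.98 ± 0.17) and Unc5d (-1.70 ± 0.44) were lower and Unc5b was not called (-0.08 ± 0.13, adjusted p = 0.633). Dcc, the netrin receptor for attraction, was lower with -1.40 ± 0.32 (adjusted p = 0.00421), and Ntng1, a membrane-anchored netrin of neurons, with -1.96 ± 0.26 (adjusted p = 9.23e-05).

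Among Eph genes lower in HA IP, Efna3 had the lowest value, -2.36 ± 0.21 (edgeR adjusted p = 6.82e-06). Efna5 (-1.48 ± 0.33), Ephb2 (-1.73 ± 0.27), Ephb1 (-0.97 ± 0.21), Efnb3 (-0.75 ± 0.14) and Epha6 (-1.96 ± 0.52) were also called. The kinase-inactive receptors Epha10 (-1.84 ± 0.49) and Ephb6 (-0.91 ± 0.29), the basement membrane netrin Ntn4 (-1.45 ± 0.53) and the RGM ligand Rgmb (-1.05 ± 0.35) passed with adjusted p of 0.00899, 0.023, 0.0418 and 0.0262. Leaving out animal 65 ended the call of all 4: Epha10 (-1.77, adjusted p = 0.0515), Ephb6 (-0.71, adjusted p = 0.0994), Ntn4 (-1.38, adjusted p = 0.0779) and Rgmb (-1.09, adjusted p = 0.0656). Leaving out animal 79 or 154 did so for Ephb6, Ntn4 and Rgmb (Ephb6 -0.92 and -0.90, Ntn4 -1.53 and -1.64, Rgmb -1.10 and -1.12), and leaving out 42 did so for Ntn4 (-1.21). With the animal as a block 29 members were called, with Neo1 (0.31, adjusted p = 0.0154) and Efna2 (1.40, 0.0121) added beside Robo2 as higher and Efnb2 (-1.17, 0.00381) and Epha3 (-1.47, 0.0272) as lower. Shares of all genes called with the block and with all 22 libraries are not given here. With all 22 libraries in 1 fit 14 were called. The calls lost there were Epha4 (1.00, adjusted p = 0.17), Ephb3 (2.08, 0.0639) and Efna4 (2.81, 0.074) among the higher ones. Among the lower ones they were Ephb1 (-1.06, 0.0547), Epha6 (-2.06, 0.052), Ephb6 (-1.01, 0.279), Unc5c (-1.07, 0.0668), Dcc (-1.49, 0.0864), Ntn4 (-1.53, 0.204) and Rgmb (-1.13, 0.175).

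**Figure D1:**
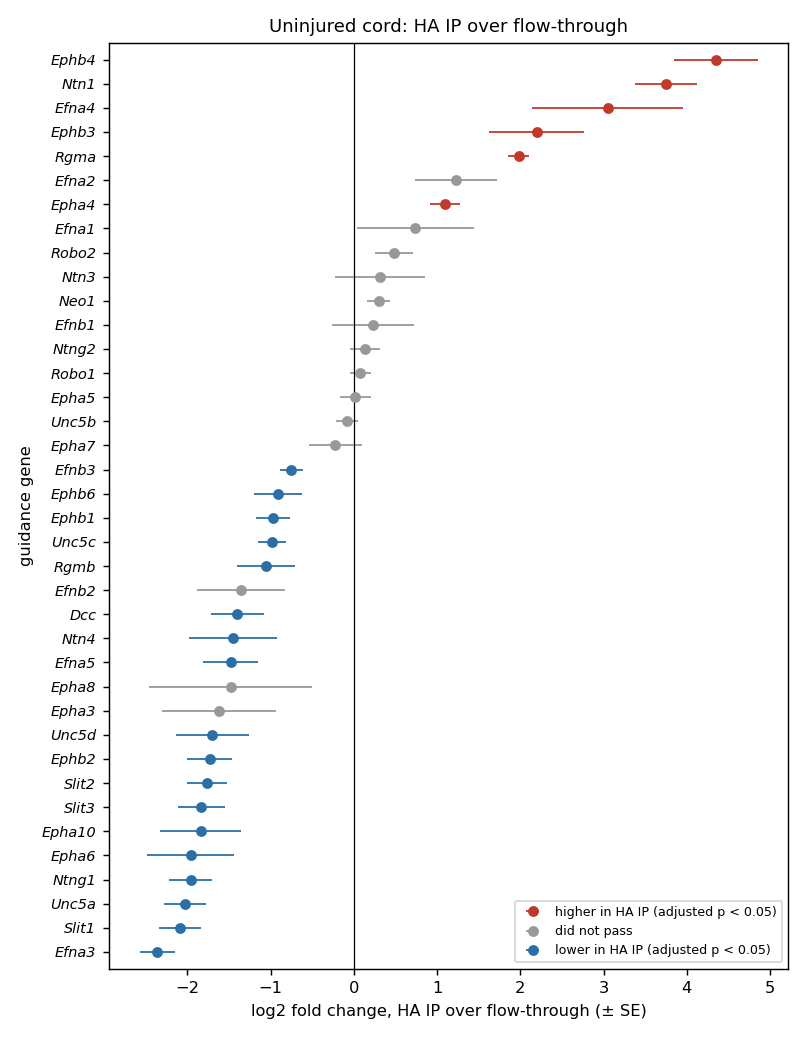
Log2 fold change of HA IP over flow-through in uninjured cord for the 38 guidance genes tested, with bars for 1 SE and colour for the call (n = 4 mice, a library of each fraction per mouse). Ephb4 (4.35) and Ntn1 (3.75) lie farthest to the right, and Efna3 (-2.36) farthest to the left.

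After injury fewer members could be compared between fractions. In STAT3-CKO SCI, 4 of 35 members tested were higher in HA IP and 0 lower, where 11.8% of all genes differed, 7.12% higher and 4.70% lower. They were Ntn1 (log2 fold change 3.27 ± 0.58, edgeR adjusted p = 0.00123), Rgma (1.80 ± 0.37, 0.00365), Ephb4 (3.42 ± 0.96, 0.0267) and Neo1 (1.13 ± 0.32, 0.0278). Without animal 531 only the Ntn1 call was left, with Rgma at 1.68 (adjusted p = 0.105), Ephb4 at 2.91 (0.241) and Neo1 at 1.46 (0.113). Ephb4 was also lost without 186 (3.12, adjusted p = 0.0515), and Neo1 without 270 (0.97, adjusted p = 0.176), where Ephb4 was 4.78. With the animal as a block, 10 members were called, 7 higher and 3 lower in HA IP. The share of all genes called in that fit is not given here. The block added Robo2 (1.18), Epha4 (1.12) and Unc5b (0.91) as higher and Efna3 (-2.39), Ntng1 (-1.58) and Slit2 (-1.28) as lower.

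In WT SCI 16 members were tested between fractions and 0 were called by edgeR, where 6.25% of all genes were, 4.09% higher and 2.16% lower. Of the members, 3 members had an unadjusted p under 0.05, and DESeq2 called 1. Rgma was at 32.3, 28.7, 27.7 and 18.9 CPM in HA IP and at 13.8, 10.1, 11.1 and 15 CPM in flow-through. In the fit over both fractions its log2 fold change was 1.30 ± 0.43 and did not pass (edgeR adjusted p = 0.079). With the animal as a block, Rgma passed at 1.25 (edgeR adjusted p = 0.0436) and Unc5d, at -1.96, passed as lower in HA IP (adjusted p = 0.0383). Astrocyte markers were higher in HA IP in 8 of 10 in WT SCI and in 10 of 10 in STAT3-CKO SCI. Oligodendrocyte precursor markers were higher in 5 of 9 and 7 of 9, and oligodendrocyte markers in 2 of 12 and 4 of 12, with 0 lower. HA IP after injury thus also held RNA of that lineage, and its part in the members' values was not tested.

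Some Eph and ephrin genes and an UNC5 receptor differed in HA IP between WT SCI and uninjured cord. Of 37 members tested, 5 (13.5%) were called between WT SCI and uninjured cord: Ephb1, Unc5c and Efnb3 rose, and Epha4 and Epha3 fell. Of all 14764 genes tested, 26.7% were called, 15.8% higher and 10.9% lower, so the members' share was not above that of all genes. The median log2 fold change was -0.13 over the members tested and 0.00 over all genes. In tissue extracts such as these, fewer cells of a type and less RNA per cell cannot be told apart.

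Ephb1, a receptor for ephrin-B ligands (chr9:101922128-102354693, minus strand, GRCm38), was at 6.84, 54.4, 21.8 and 18.8 CPM in WT SCI and at 4.74, 7.22, 4.74 and 5.20 CPM in uninjured HA IP libraries. WT SCI animal 9935, at 6.84 CPM, lay below the highest uninjured library, and the other 3 lay above all uninjured ones. The log2 fold change was 2.23 ± 0.45 (edgeR adjusted p = 0.00125). Without animal 9874, at 54.4 CPM, it was 1.55 (adjusted p = 0.00553).

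Unc5c, a netrin receptor for repulsion (chr3:141465216-141834924, plus strand), was at 11.7, 4.53, 9.42 and 11.4 CPM in WT SCI and at 3.37, 2.77, 2.83 and 3.51 CPM in uninjured libraries. All WT SCI values were above all uninjured values, and the log2 fold change was 1.57 ± 0.40 (edgeR adjusted p = 0.00767). Efnb3, the ephrin-B3 gene (chr11:69554092-69560205, minus strand), was at 19.2, 41.5, 33.6 and 32.6 CPM in WT SCI and at 15, 17.7, 13.5 and 18 CPM in uninjured libraries. These groups did not overlap either (0.99 ± 0.27, adjusted p = 0.0108), and with all libraries thinned to equal depth the call was lost (0.69, adjusted p = 0.0795).

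Epha4, whose product binds ephrins of both classes (chr1:77367185-77515088, minus strand), was at 1.63, 1.13, 3.84 and 4.66 CPM in WT SCI and at 11.1, 8.24, 8.28 and 7.01 CPM in uninjured libraries. Every WT SCI library was below every uninjured one, and the log2 fold change was -1.58 ± 0.45 (edgeR adjusted p = 0.0149). Without uninjured animal 42 it was -1.44 and did not pass (adjusted p = 0.0533). Epha3, a receptor for ephrin-A ligands (chr16:63543534-63864175, minus strand), had 0 counts in the 4 WT SCI libraries and 89, 11, 27 and 72 counts in the uninjured ones. With WT SCI set at a floor of 3 counts over the group, 0.0931 CPM, it was 2.18-fold lower there. This fold is a bound that was not itself tested. The edgeR test used the counts without a floor (adjusted p = 0.0462). The floor allows for counting error in the group at 0 and not in the other group. That call was lost in 7 of 8 fits that each left out 1 library, all but that without uninjured animal 79, with adjusted p of 0.0561 to 0.105, and with DESeq2 (0.108) or no low-count filter (0.0709).

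Markers of other cell types moved in the same HA IP comparison. Markers of oligodendrocyte precursors rose in 9 of 9 and summed to 700 to 838 CPM in WT SCI and 230 to 370 CPM in uninjured libraries. Oligodendrocyte markers rose in 8 of 12, with sums of 6060 to 8680 and 1500 to 1980 CPM, and microglia and macrophage markers in 15 of 16, with sums of 814 to 2570 and 30.1 to 71.2 CPM. Neuronal markers fell in 6 of 15, with sums of 163 to 335 and 496 to 861 CPM, and none of these 4 lists had a marker at 0 throughout a group. Astrocyte markers rose in 1 of 10 and fell in 5, with sums of 3200 to 5570 and 4120 to 5050 CPM. Fibroblast and pericyte markers rose in 4 of 9 tested, with sums of 12.4 to 62.4 and 8.81 to 12.9 CPM. Endothelial markers rose in 1 of 3 tested and fell in 0, with sums of 0.617 to 4.89 and 0.162 to 0.544 CPM. Of that list, Cdh5, Cldn5 and Pecam1 had no counts in HA IP of WT SCI. The part of these cell types in the Ephb1, Unc5c, Efnb3, Epha4 and Epha3 results was not tested.

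Summed over families, EphA receptors took 8.64 ± 3.19 CPM in WT SCI and 17.6 ± 4.17 CPM in uninjured HA IP libraries, and EphB receptors 31.9 ± 17.8 and 10.5 ± 1.31 CPM (SD, n = 4 each). All 6 EphA receptors tested had a negative log2 fold change: beside Epha3 and Epha4, Epha6 had -1.94, Epha7 -1.88, Epha10 -0.98 and Epha5 -0.24, which did not pass. The EphA ranges, 5.09 to 11.9 and 14.8 to 23.8 CPM, did not overlap, and nor did those of EphB, 18.6 to 57.4 and 9.38 to 12.4 CPM. Sums of ephrin-B ligands (19.2 to 47.3 and 14.4 to 18.9 CPM) and UNC5 receptors (20.2 to 33 and 16.1 to 19 CPM) did not overlap either. Those of the remaining families overlapped. How often sums of other genes do not overlap was not counted. These sums include the members called above. Epha4 made up most of the EphA difference and Ephb1 most of the EphB difference.

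**Figure D2:**
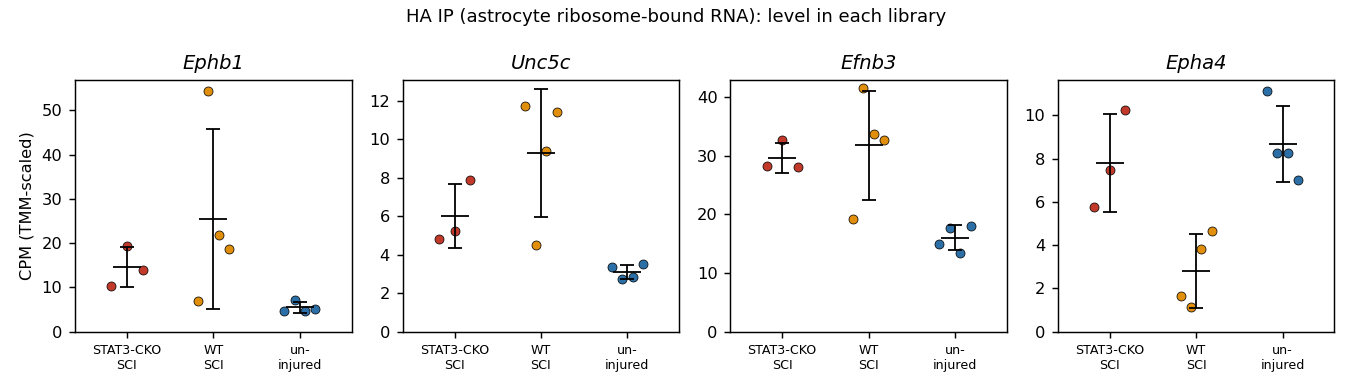
CPM at TMM-scaled library size in each HA IP library (points), with mean and SD (bars), for STAT3-CKO SCI (n = 3), WT SCI (n = 4) and uninjured mice (n = 4). All WT SCI points of Unc5c and Efnb3 lie above the uninjured ones, all those of Epha4 lie below, and 1 Ephb1 point of WT SCI, at 54.4 CPM, stands far above the rest.

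The other ligands and receptors gave no call in HA IP of WT SCI. Rgma was at 18.9 to 32.3 CPM in WT SCI and 22.7 to 25.0 CPM in uninjured libraries, and its receptor gene Neo1 at 25.1 to 31.0 and 28.2 to 31.9 CPM. Ntn1 ranged from 1.74 to 13.0 CPM in WT SCI and from 5.00 to 8.53 CPM in uninjured libraries, so that the wider group enclosed the narrower. The Robo genes had overlapping ranges too, Robo1 with 3.58 to 13.8 and 13.2 to 15.3 CPM and Robo2 with 3.66 to 18 and 8.65 to 12.5 CPM. Without WT SCI animal 9874, the highest, Robo2 passed as lower (-1.21, edgeR adjusted p = 0.0164), and so did Efna2 (-2.93, 0.0181). Ntng1 was at 0, 0, 3.66 and 0.137 CPM in WT SCI and at 3.02, 1.89, 1.98 and 3.66 CPM in uninjured HA IP. Its log2 fold change of -1.52 did not pass, and without animal 9843, the highest of WT SCI, it was -5.20 and passed (adjusted p = 0.000827). Slit2 ranged from 0.549 to 8.15 CPM in WT SCI and from 2.19 to 4.21 CPM in uninjured libraries. Efna4 had 0 counts in WT SCI and 149 in the uninjured group, 1.63-fold lower with WT SCI set at the same floor. The edgeR test without the floor gave adjusted p = 0.0664.

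In flow-through the guidance genes that changed with injury were mostly lower. Of 31 members tested, 8 (25.8%) were called between WT SCI and uninjured cord, 7 lower and 1 higher, where 31.0% of all 12685 genes were called, 14.3% lower and 16.7% higher. The median log2 fold change was -0.85 over the members tested and -0.09 over all genes, which became -0.21 over all genes with RLE scaling. Ntng1, Slit2, Robo1, Robo2, Unc5a, Unc5b and Neo1 fell and Ntn1 rose. Beside them, neuronal markers fell in 11 of 15 and rose in 0, with sums of 613 to 1220 CPM in WT SCI and 3300 to 4050 CPM in uninjured libraries. Oligodendrocyte markers rose in 3 of 12 and fell in 3 (sums of 4770 to 5250 and 3440 to 4010 CPM), and microglia and macrophage markers rose in 15 of 16 (3680 to 9580 and 93.2 to 178 CPM). The part of these cells in the results was not tested.

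Ntng1 (chr3:109780040-110144011, minus strand) was at 0, 0, 0.738 and 0.681 CPM in WT SCI, which is 3 counts in all, and at 12.2, 9.71, 11.9 and 15.7 CPM in uninjured flow-through. The groups lay far apart, with a log2 fold change of -4.67 ± 0.69 (edgeR adjusted p = 8.42e-06) that was -5.26 without WT SCI animal 9596. Efna3 did not pass (-1.75), but did with DESeq2 (-1.90, adjusted p = 0.0228) and without WT SCI animal 9874 (-3.31, edgeR adjusted p = 0.00901). Slit2, a repellent ligand, was at 9.86, 0.774, 2.21 and 2.73 CPM in WT SCI, on 5, 1, 3 and 8 counts, and at 15.1, 10.4, 12.4 and 13.0 CPM in uninjured libraries. All WT SCI values were below all uninjured ones (-2.09 ± 0.53, adjusted p = 0.00386).

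The receptors of Slit2 were lower as well. Robo1 was at 0, 10.1, 4.43 and 7.5 CPM in WT SCI and at 17.8, 14.4, 16.1 and 14.8 CPM in uninjured libraries, without overlap (-1.33 ± 0.44, edgeR adjusted p = 0.0233). Robo2 was at 7.88, 3.87, 0.738 and 1.70 CPM in WT SCI and at 12.7, 7.76, 6.17 and 8.48 CPM in uninjured libraries, where WT SCI animal 9935 lay within the uninjured range (-1.66 ± 0.59, adjusted p = 0.0344). Both calls were lost without WT SCI animal 9843, with Robo1 at -1.19 (adjusted p = 0.0603) and Robo2 at -1.33 (0.0981). Robo1 was also lost without uninjured animal 65 (-1.33, 0.0507), and Robo2 without uninjured 42 (-1.45, 0.0861), 79 (-1.69, 0.0607) or 154 (-1.64, 0.0737) or WT SCI 9596 (-1.37, 0.102).

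Netrin receptors and neogenin made up the rest of the genes that fell. Unc5a was at 1.97, 0.774, 6.64 and 11.2 CPM in WT SCI and at 19.5, 11.9, 15.8 and 13.5 CPM in uninjured flow-through, without overlap (-1.32 ± 0.48, edgeR adjusted p = 0.0384). Unc5b was at 3.94, 2.32, 6.64 and 8.86 CPM in WT SCI and at 14.0, 14.8, 11.7 and 13.7 CPM in uninjured libraries, also without overlap (-1.19 ± 0.42, adjusted p = 0.0336). Neo1 was at 9.86, 19.4, 21.4 and 13.3 CPM in WT SCI and at 33.4, 23.8, 32.5 and 28.2 CPM in uninjured libraries, again without overlap (-0.85 ± 0.33, adjusted p = 0.0488). These calls lay near the threshold. Unc5a was lost in 6 of 8 fits without 1 library, with log2 fold changes of -1.40 to -0.96, and held without uninjured 79 and without WT SCI 9596, where it was -2.15. Unc5b was lost in 4 of 8, without uninjured 79, 65 or 154 or WT SCI 9874 (-1.26 to -0.93), and Neo1 in 7 of 8, all but that without WT SCI 9843 (-0.94 to -0.72).

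Ntn1 (chr11:68209364-68400823, minus strand) was at 0, 2.32, 0.738 and 16 CPM in WT SCI flow-through and at 0.255, 0.65, 1.06 and 0.521 CPM in uninjured flow-through. Only WT SCI animals 9874 and 9596 lay above all uninjured libraries. The log2 fold change of 3.26 ± 0.80 (edgeR adjusted p = 0.00276) was 1.02 without animal 9596 and did not pass (adjusted p = 0.499). Astrocyte markers rose in 5 of 10 in the same comparison, with sums of 743 to 1010 CPM in WT SCI and 265 to 313 CPM in uninjured flow-through, and their part in the Ntn1 value was not tested. Rgmb, which encodes the other RGM ligand, was not called (1.15), and passed as higher without uninjured animal 42 (1.60, adjusted p = 0.0377) or WT SCI animal 9935 (1.44, 0.024).

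**Figure D3:**
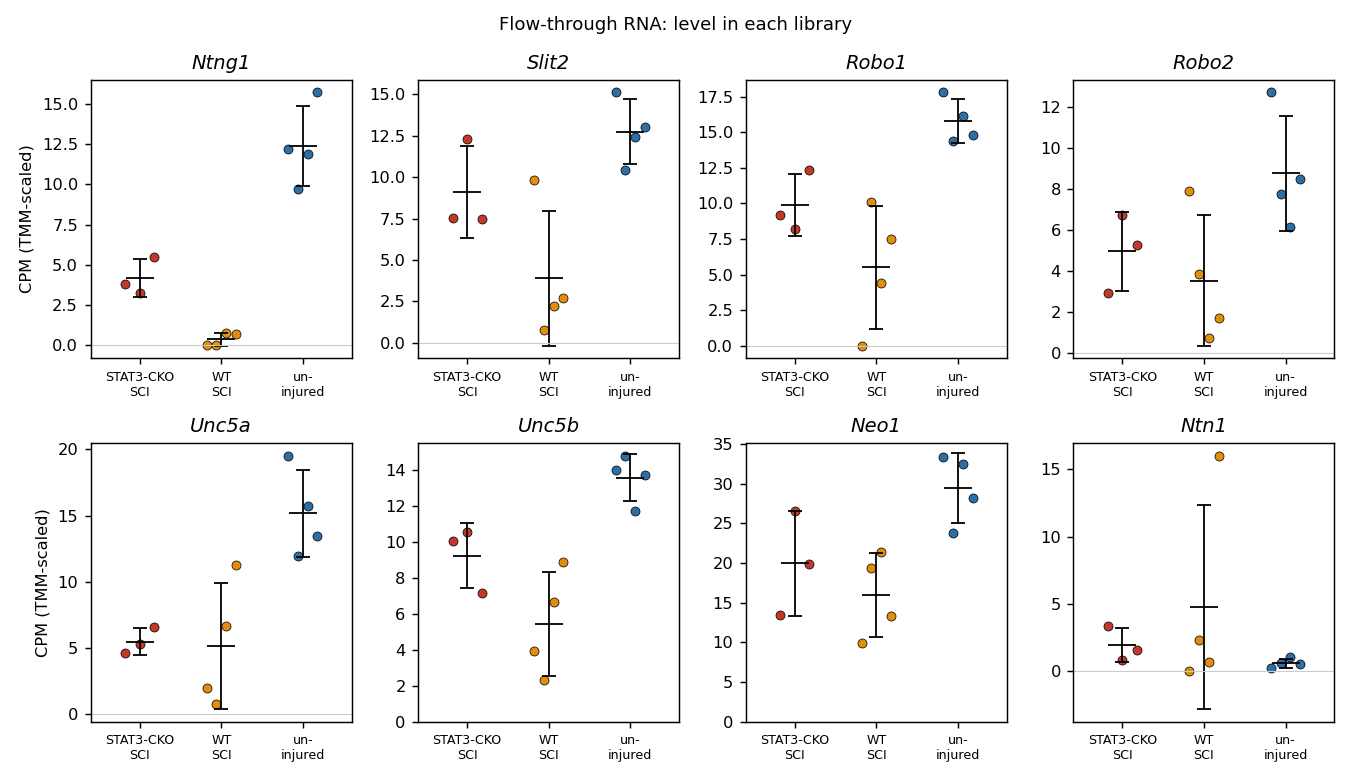
CPM at TMM-scaled library size in each flow-through library (points), with mean and SD (bars), for STAT3-CKO SCI (n = 3), WT SCI (n = 4) and uninjured mice (n = 4). Ntng1 in WT SCI lies at 0 to 0.738 CPM, below the STAT3-CKO SCI and uninjured points, and 1 Ntn1 point of WT SCI, at 16 CPM, stands apart.

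Whether injury acted differently in the 2 fractions was tested as the difference of the 2 injury effects. Of 39 members tested, 2 (5.13%) were called, both with a higher injury effect in HA IP, where 4.71% of all genes were called, 2.67% in that direction and 2.03% in the other. The median difference was 0.89 over the members tested and 0.26 over all genes, which became 0.06 over all genes with RLE scaling. Efnb3 rose in HA IP by 0.99, while in flow-through it was at 29.6, 28.6, 22.1 and 16.7 CPM in WT SCI and 30.2, 36.1, 32.6 and 30.6 CPM in uninjured libraries (-0.46 ± 0.29, edgeR adjusted p = 0.238). The difference was 1.64 ± 0.38 on the log2 scale (adjusted p = 0.00851). It was lost without uninjured animal 65 (1.56, adjusted p = 0.0504) and at equal depth (1.55, 0.0982).

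Unc5c was at 3.94, 3.87, 10.3 and 1.36 CPM in WT SCI flow-through and at 7.76, 7.02, 6.28 and 8.34 CPM in uninjured flow-through (-0.65 ± 0.55, edgeR adjusted p = 0.383). Its difference between fractions was 2.40 ± 0.66 (adjusted p = 0.0288). This was lost with RLE scaling (2.19, adjusted p = 0.055) and without uninjured 42 (2.46, 0.0664), 79 (2.37, 0.0936), 65 (2.42, 0.0897) or 154 (2.42, 0.0901) or WT SCI 9596 (1.82, 0.0999), while without WT SCI 9843 it was 3.24. With the animal as a block 5 members were called, with Ephb1 (1.71, adjusted p = 0.0126), Unc5a (2.17, 0.0196) and Ntn1 (-2.48, 0.037) added. The share of all genes called with the block is not given here. Without the block, Ephb1 passed when WT SCI animal 9935 (2.06, 0.0212) or 9596 (2.22, 0.0443) was left out, and Unc5b when 9596 was (2.17, 0.0185). For Ephb1 the flow-through values were 15.8, 23.2, 9.59 and 27.3 CPM in WT SCI and 8.68, 16, 13.9 and 13.2 CPM in uninjured libraries, which overlapped. For Epha4 they were 5.91, 0, 2.21 and 16 CPM in WT SCI and 5.01, 4.94, 5.21 and 4.39 CPM in uninjured libraries, with the WT SCI libraries on both sides of the uninjured ones. Beside these differences, oligodendrocyte markers had a higher injury effect in HA IP in 10 of 12 and oligodendrocyte precursor markers in 4 of 9, and their part was not tested.

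**Figure D4:**
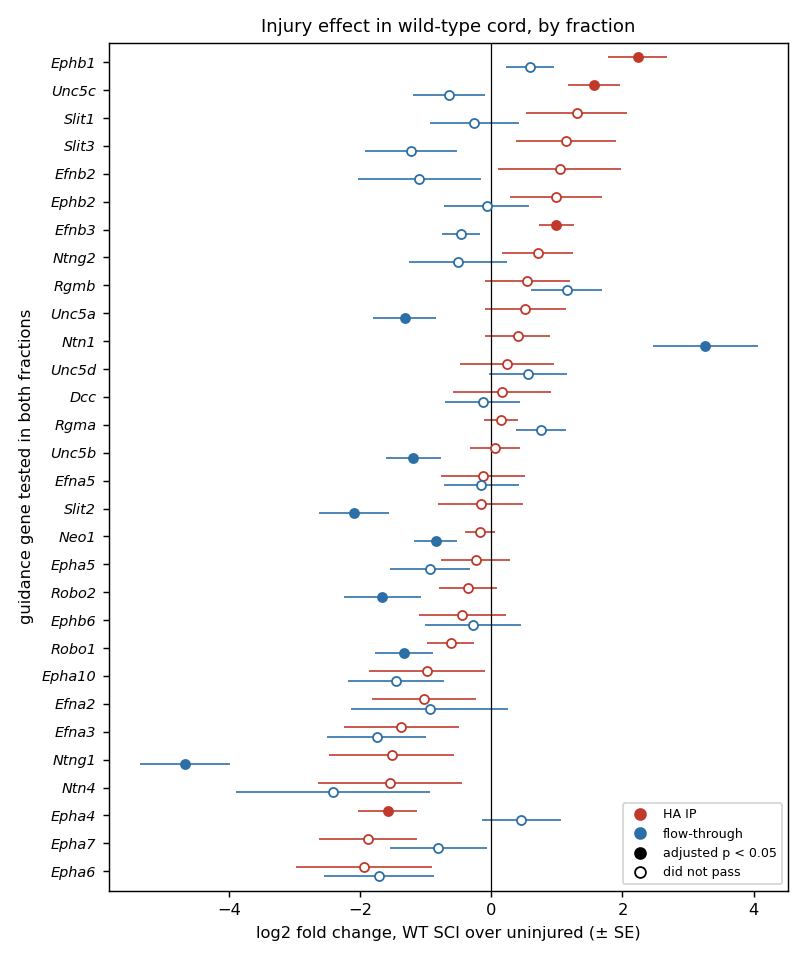
Log2 fold change of WT SCI over uninjured cord in HA IP (red) and flow-through (blue) for guidance genes tested in both fractions, other than Epha3, with bars for 1 SE (n = 4 mice per group). Filled points passed an adjusted p of 0.05; Efnb3 (0.99 in HA IP) and Unc5c (1.57 in HA IP) lie on opposite sides of 0 in the 2 fractions.

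No guidance gene passed the threshold by edgeR between STAT3-CKO SCI and WT SCI in either fraction, where few of all genes did. These groups also differed in Rn45s share of HA IP counts (52.2% to 89.2% and 89% to 96.2%). HA IP counts outside ribosomal rows were 2496641 to 17348247 and 620265 to 2691494. The part of these differences in the values was not tested. In HA IP, 0 of 37 members were called by edgeR between STAT3-CKO SCI and WT SCI, where 1.16% of all genes were, 0.596% higher and 0.562% lower. Of the members, 4 had an unadjusted p under 0.05, and DESeq2 called 1. The smallest adjusted p, 0.141, was that of Epha4, at 5.75, 7.45 and 10.2 CPM in STAT3-CKO SCI and 1.63, 1.13, 3.84 and 4.66 CPM in WT SCI. All 3 STAT3-CKO libraries were above all 4 WT SCI libraries (1.43 ± 0.48), and DESeq2 called it (1.38, adjusted p = 0.0449). The WT SCI libraries held 105 Epha4 counts in all, and the same libraries gave the lower value after injury. Epha3 had 3, 8 and 31 counts in STAT3-CKO SCI and 0 in WT SCI, 2.7-fold higher with WT SCI set at the floor above. The edgeR test without the floor gave adjusted p = 0.155. Efna4 had 7, 4 and 10 counts and 0 counts, 1.35-fold higher with WT SCI set at that floor. Its edgeR test without the floor gave adjusted p = 0.189. Ntng1, at 0.777 to 1.68 CPM in STAT3-CKO SCI and 0 to 3.66 CPM in WT SCI, passed only without WT SCI animal 9843 (4.05, adjusted p = 0.0499).

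Genes that rose with injury in WT HA IP had these values in STAT3-CKO SCI. Ephb1 was at 10.4, 19.5 and 13.9 CPM, Unc5c at 4.83, 5.25 and 7.90 CPM and Efnb3 at 28.2, 32.6 and 28.1 CPM, each within the WT SCI range. The log2 fold changes over WT SCI were -0.81 ± 0.48, -0.62 ± 0.43 and -0.11 ± 0.29, with edgeR adjusted p of 0.402, 0.49 and 0.89, which does not show that the genotypes are alike. Against uninjured cord all of these STAT3-CKO values lay above all uninjured values. The log2 fold changes were 1.42 ± 0.46 for Ephb1 (adjusted p = 0.0589), 0.95 ± 0.42 for Unc5c (0.177) and 0.89 ± 0.28 for Efnb3 (0.0556). In that comparison 0 of 37 members were called by edgeR, where 9.78% of all genes were, 7.70% higher and 2.08% lower. Of the members, 4 had an unadjusted p under 0.05, and DESeq2 called 1. With only these 2 groups in the fit, 5 were called: Ephb1, Efnb3, Unc5c, Ntn1 (1.18) and Ephb4 (1.51), all higher. The share of all genes called in that fit is not given here. Oligodendrocyte precursor markers rose in 8 of 9 here, to sums of 623 to 880 CPM in STAT3-CKO SCI, against 230 to 370 CPM in uninjured libraries, and their part was not tested. Comparisons of either injured group with uninjured cord share the uninjured libraries. Those of WT SCI with uninjured cord and of STAT3-CKO SCI with WT SCI share the WT SCI libraries, so their results are not independent.

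Flow-through gave 0 calls among 31 members by edgeR between STAT3-CKO SCI and WT SCI, where 0.118% of all genes were called, 0.0867% higher and 0.0315% lower. Of the members, 3 had an unadjusted p under 0.05, and DESeq2 called 1. That was Ntng1, at 3.77, 3.21 and 5.49 CPM in STAT3-CKO SCI and 0, 0, 0.738 and 0.681 CPM in WT SCI. The genotypes did not overlap, with a log2 fold change of 3.15 ± 0.77 (edgeR adjusted p = 0.104; DESeq2 0.0366). Slit2 was at 7.53, 12.3 and 7.45 CPM in STAT3-CKO SCI and 0.774 to 9.86 CPM in WT SCI, which overlapped (1.59 ± 0.57, edgeR adjusted p = 0.234). Neuronal markers summed to 1360 to 1860 CPM in STAT3-CKO SCI and 613 to 1220 CPM in WT SCI flow-through, and their part in the Ntng1 and Slit2 values was not tested.

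Against uninjured flow-through, 2 of 31 members fell in STAT3-CKO SCI and 0 rose, where 13.9% of all genes were called, 3.53% lower and 10.4% higher. Ntng1 had a log2 fold change of -1.53 ± 0.47 (edgeR adjusted p = 0.0286), and Unc5a, at 4.60, 5.26 and 6.56 CPM in STAT3-CKO SCI and 11.9 to 19.5 CPM in uninjured libraries, one of -1.44 ± 0.49 (adjusted p = 0.0486). Neither gene's groups overlapped. The Ntng1 call was lost in 5 of 7 fits without 1 library, those without uninjured 79, 65 or 154 or STAT3-CKO 186 or 531 (-1.63 to -1.39), and the Unc5a call in 7 of 7 (-1.68 to -1.35). Neuronal markers fell in 5 of 15, with sums of 1360 to 1860 CPM in STAT3-CKO SCI and 3300 to 4050 CPM in uninjured flow-through. Unc5c was at 3.77, 2.34 and 4.24 CPM in STAT3-CKO SCI, below all uninjured libraries, with adjusted p = 0.213. The effect of genotype differed between the fractions for 0 of 39 members by edgeR, where 0.0264% of all genes were called, 0.00660% higher and 0.0198% lower. Of the members, 2 had an unadjusted p under 0.05, and DESeq2 called 0.

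Genes that act with these ligands and receptors were counted from 4 lists. In HA IP of WT SCI against uninjured cord, 3 of 22 Eph and ephrin signalling genes rose and 3 fell, where 15.8% of all genes rose and 10.9% fell. The Src-family kinase Fyn (log2 fold change 1.58 ± 0.28, edgeR adjusted p = 0.000423), the Rap regulator Sipa1l1 (1.25 ± 0.32) and the lipid phosphatase Inppl1 (1.00 ± 0.34) rose. Chn1, a Rac-inactivating protein that acts below EphA4 (-2.33 ± 0.43, adjusted p = 0.000622), Ngef, which encodes ephexin (-1.92 ± 0.38), and the kinase Yes1 (-1.42 ± 0.45) fell. The list's median was 0.15, beside 0.00 for all genes.

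Against the same shares of all genes, 5 of 16 Slit and Robo signalling genes rose and 0 fell, among them Gpc1, a heparan sulfate proteoglycan that binds Slits (3.01 ± 0.41, edgeR adjusted p = 3.12e-05), and the kinase Abl1 (1.97 ± 0.34). Of 19 netrin genes and partners 4 rose and 5 fell: the myelin protein Mag (2.28 ± 0.28) and the netrin receptor Dscam (1.41 ± 0.36) were higher, and the UNC5 ligands Flrt3 (-2.61 ± 0.75), Flrt2 (-1.97 ± 0.53) and Flrt1 (-1.65 ± 0.59) lower. Of 14 RGM and neogenin genes tested of 15, 2 rose and 0 fell, the growth factor Bmp4 (4.30 ± 0.51, adjusted p = 7.84e-06) and Arhgef12 (0.81 ± 0.27). Medians were 0.37, 0.23 and -0.05.

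In flow-through of WT SCI the 4 lists gave 3 higher and 3 lower of 22, 6 and 1 of 16, 1 and 6 of 18 tested, and 3 and 0 of 14 tested, in the same order, where 16.7% of all genes were higher and 14.3% lower. Chn1 (-1.67 ± 0.32), Ngef (-2.32 ± 0.77), Flrt1 (-2.60 ± 0.88) and Flrt3 (-2.52 ± 0.74) fell there too. Lrrc4, a partner of netrin-G proteins at synapses, fell by 2.78 on the log2 scale (edgeR adjusted p = 0.00163). The lists' medians were 0.59, 0.71, -0.24 and 0.47, beside -0.09 for all genes. Between STAT3-CKO SCI and WT SCI 0 genes of any of the 4 lists were called in either fraction.

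Of the 43 members, 14 were called in none of the 11 comparisons as fitted without the block: Efna1, Efna2, Efnb1, Efnb2, Epha1, Epha2, Epha5, Epha7, Epha8, Ntn3, Ntn5, Ntng2, Robo3 and Robo4. In HA IP, the receptor Epha5 was at 4.26 ± 3.34 CPM in WT SCI and 4.74 ± 0.79 CPM in uninjured mice, and the netrin-G gene Ntng2 at 5.40 ± 5.82 and 3.41 ± 0.29 CPM (SD, n = 4 each). Epha7 was at 0 to 0.905 CPM in WT SCI and 1.37 to 2.83 CPM in uninjured HA IP, without overlap (log2 fold change -1.88 ± 0.75, edgeR adjusted p = 0.0686). It passed with DESeq2 (adjusted p = 0.018) and without WT SCI animal 9874 (-2.24, edgeR adjusted p = 0.0468). Epha1, Epha2, Epha8, Ntn5, Robo3 and Robo4 had too few counts to test in HA IP, and over the 4 uninjured libraries they had 69, 12, 55, 13, 15 and 11 counts. Epha2 had 0, 0 and 25 counts in STAT3-CKO SCI and 0 in WT SCI, so that 1 library held all of its HA IP counts in the injured groups. Efna2 and Efnb2 were called between the fractions of uninjured cord with the animal as a block, as given above, and with DESeq2 (1.16, adjusted p = 0.0374, and -1.37, 0.0243). Flow-through was too shallow to test 6 more: Efna1, Efna4, Efnb1, Ephb3, Ephb4 and Ntn3.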

How the data were processed

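RNA of 11 mice was sequenced as 22 libraries, 1 of each fraction per animal, in 6 groups named by the labels. Per the labels' protocols, cDNA came from the NuGEN Ovation V2 kit, and PCR amplified the libraries. The submitters' processing notes name CASAVA 1.8.2, edgeR and the build mm10, with aligner and strand setting not given in the sources used here. The authors deposited raw counts per gene symbol, and 124 other columns of per-sample values in those tables were not used. Members and lists were chosen with earlier results of these data known.

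All gene rows, ribosomal ones included, entered library sizes. Genes were filtered with filterByExpr, scaled by TMM and tested with edgeR 4.0.16 (quasi-likelihood, R 4.3.3), with Benjamini-Hochberg adjustment over all genes tested and a threshold of 0.05; SEs are the log2 fold change over the root of F. Within a fraction its 3 groups were fitted together; HA IP against flow-through was fitted per condition and differences of effects over all libraries. CPM are counts over TMM-scaled sizes within a fraction, so CPM of HA IP and flow-through are on separate scales; exon lengths and coordinates come from GENCODE (GRCm38, the same build as mm10). Scripts were tested on simulated data. p-values within a fraction measure the spread between these animals. Fits over both fractions without the animal as a block take both libraries of an animal as independent. Counting floors cover counting error only, and only in the group at 0, with the counts of the other group taken as measured.

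Animal numbers pair the fractions: deviations from group means of the same animal correlated at 0.31 to 0.73, and each of the 11 animals correlated best with itself. Alternatives were RLE scaling, DESeq2 1.42.0, no filter, ribosomal rows left out, thinning, other sets of libraries, the animal block and leaving out each library. Every member called within a fraction or in a difference of effects is given library by library; members called between fractions are given with fold changes, and the others by ranges or counts.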

Additional observations from a re-analysis of the deposited data

Results flagged for a closer look

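In groups of 4 libraries, 4 values of the members described library by library lay farther from the rest than Dixon's 95% limit allows, out of 52 groups examined; chance alone flags about 1 in 20. Ntng1 was at 3.66 CPM in HA IP of WT SCI animal 9843, with the next highest library at 0.137 CPM. Ntn1 was at 16 CPM in flow-through of WT SCI animal 9596, with the next at 2.32 CPM. Robo2 was at 18 CPM and Neo1 at 31.0 CPM in HA IP of WT SCI animal 9874, with the next at 5.87 and 25.9 CPM. Without animal 9596 the Ntn1 injury effect in flow-through was 1.02 on the log2 scale and no longer passed.

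The effect of injury differed between HA IP and flow-through, by a test of the difference itself, for Efnb3 (1.64 on the log2 scale) and Unc5c (2.40), both higher in HA IP. These were 5.13% of the members tested, near the 4.71% of all genes. That test took both libraries of an animal as independent. With the animal as a block, Ephb1, Unc5a and Ntn1 were called as well. The Efnb3 call was lost without uninjured animal 65 and at equal depth. The Unc5c call was lost with RLE scaling and in 5 of 8 fits without 1 animal.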

How the results depend on the processing

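Most counts of called members stayed within 1.5 times of the value reported, with 0 against 0 taken as the same. HA IP of WT SCI against uninjured cord gave 3 calls at equal depth and 3 to 7 when a library was left out. STAT3-CKO SCI against WT SCI in HA IP gave 1 with DESeq2 and 0 to 1 without a library. STAT3-CKO SCI against uninjured cord in HA IP gave 1 with DESeq2, 1 with no filter, 5 with only the 2 groups and 0 to 0 without a library. In flow-through, WT SCI against uninjured cord gave 0 at equal depth, where 3 members could be tested, and 4 to 7 without a library; STAT3-CKO SCI against WT SCI gave 1 with DESeq2, 1 with no filter and 0 to 0 without a library; STAT3-CKO SCI against uninjured cord gave 0 at equal depth and 0 to 1 without a library. HA IP against flow-through in uninjured cord gave 14 with all 22 libraries in 1 fit and 19 to 26 without an animal; in WT SCI it gave 1 with DESeq2, 3 with all 22 and 0 to 0 without an animal; in STAT3-CKO SCI it gave 1 to 4 without an animal. The difference of injury effects gave 1 with RLE scaling, 0 at equal depth and 0 to 3 without an animal, and that of genotype effects 0 to 0. With the animal as a replicate block, which the shared animals justify, HA IP against flow-through gave 2 calls in WT SCI, 10 in STAT3-CKO SCI and 29 in uninjured cord (9 higher, 20 lower), and the difference of injury effects gave 5. Directions turned in 4 cases, none of them called: Efnb3 between STAT3-CKO SCI and WT SCI in HA IP at equal depth (0.15) and without WT SCI animal 9874 (range without a library -0.28 to 0.05), Epha4 in flow-through of WT SCI without animal 9596 (range -1.26 to 0.87), and the Ntng1 difference of injury effects without animal 9843 (range -0.02 to 4.41). Ntn1 in flow-through of WT SCI passed no filter once ribosomal rows were left out. The cause of these shifts was not tested, other than fewer genes tested at equal depth. Shares of all genes called in the alternative fits are not given here. Whether a shift is particular to the members cannot be read from these counts. Depth limits what could be tested: WT SCI flow-through holds 91626 to 615302 counts outside ribosomal rows.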
